A study of Homo sapiens with 4 samples.

Results

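The genes described here are the replication-dependent core histone genes and the linker histone genes of the human genome, taken as the protein-coding genes whose symbols begin with H1- and a digit, H2AC, H2BC, H3C or H4C. The rule found 74 genes among 19974 protein-coding genes on chromosomes 1 to 22 and X of GRCh38: 10 linker histone (H1) genes, 17 H2A genes, 19 H2B genes, 13 H3 genes and 15 H4 genes. The assay was ATAC-seq, which marks open chromatin by letting a transposase cut accessible DNA, and the cells were 786-O, a human renal carcinoma cell line. The DEK KO group (2 libraries) came from Cas9-expressing 786-O cells that were given DEK guide RNAs by a LentiGuide-Puro virus and sorted as single cells. The WT control group (2 libraries) came from Cas9-expressing negative control cells with a WT genotype, so Cas9 is shared by both groups. The Cas9 line was itself a clone, per the labels. The labels do not tell whether replicates were grown from different clones or different cultures. The spread between replicates, on which every p-value here rests, may therefore be technical.

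Core histones form the protein spool of the nucleosome, and linker histones bind where DNA enters and leaves it. Replication-dependent histone genes are short, have no introns in their main transcripts and are transcribed in S phase, when new DNA must be packaged. Their mRNAs end in a stem-loop instead of a poly(A) tail, and H2A and H2B genes often form head-to-head pairs that share the DNA between their starts. DEK, the protein removed in the knockout, binds chromatin and acts as a histone chaperone.

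Each library is represented by the authors' own peak list, with 102760 and 99508 peaks in DEK KO replicates 1 and 2 and 89563 and 90409 peaks in WT control replicates 1 and 2 on these chromosomes. Read depth is unknown, because the lists give no read totals. Peaks were compared by rank. A percentile gives the place of a gene's best peak, the one with the highest −log10 p within 1 kb of the gene span, among the 89563 highest-ranked peaks of its list, so that all lists have the same length and 100 is the strongest peak. DEK itself had percentiles of 76.0 and 76.6 in DEK KO replicates 1 and 2 and 77.8 and 69.2 in WT control replicates 1 and 2, so open chromatin at DEK was present in both groups and does not check the knockout. Of 6 markers of the renal carcinoma line, 5 had a peak within 1 kb in all 4 lists and CA9 had none. The listed starts of PAX8, VIM and MET lay in peaks in every library, and that of CDH2 lay in a peak in 1 list only. Of 13 markers of blood, endothelium, hepatocytes and neurons, 10 also had a peak within 1 kb of their span in all 4 lists. Of those with a listed start, PTPRC, TEK, ALB and RBFOX3 had it in no peak and SYP, a neuronal gene, had it in a peak in all 4 lists.

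Promoter sequences of 67 of the 74 genes were in RefSeq's table for GRCh38.p14. For 8 of them the 200 bases before the start of transcription are shown, chosen to represent the histone types and the genes on which the results below turn. Capitals mark matches, on either strand, to 4 sequence motifs: the TATA box (TATAA), the CCAAT box (CCAAT), the octamer bound by POU factors (ATTTGCAT) and the AC box of H1 genes (AAACACA). The first is H1-4 (chr6:26156129-26156328, plus strand), the linker histone gene with the highest-ranked peaks within 1 kb. H1-3 (chr6:26234988-26235187, minus strand) had the largest difference between groups by −log10 p, and H1-1 (chr6:26017788-26017987, minus strand) had no peak. H2BC17 (chr6:27893225-27893424, plus strand) and H2BC21 (chr1:149886683-149886882, minus strand) belong to H2A and H2B pairs. H3C1 (chr6:26020251-26020450, plus strand) and H3C2 (chr6:26032100-26032299, minus strand) differed between groups in opposite directions, and H4C16 (chr12:14771132-14771331, minus strand) lies outside the clusters. At H1-4, H1-3 and H4C16 the summit of the best peak lay past the end of the gene, as given below. The summit also lay past the end of H3C1 in every list except WT control replicate 1, and past that of H2BC17 in DEK KO replicate 1. At H2BC21 it lay -1704 and -1595 bp from the start in DEK KO replicates 1 and 2, against -85 and -1503 bp in WT control replicates 1 and 2.
H1-4: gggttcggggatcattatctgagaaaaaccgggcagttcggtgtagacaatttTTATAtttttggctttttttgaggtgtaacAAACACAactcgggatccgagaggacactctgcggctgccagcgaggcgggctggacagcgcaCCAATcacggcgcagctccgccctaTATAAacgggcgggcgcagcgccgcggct
H1-3: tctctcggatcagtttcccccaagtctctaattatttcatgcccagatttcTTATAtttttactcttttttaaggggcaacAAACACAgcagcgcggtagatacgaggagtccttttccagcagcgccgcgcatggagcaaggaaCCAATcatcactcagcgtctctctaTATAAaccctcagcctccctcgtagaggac
H1-1: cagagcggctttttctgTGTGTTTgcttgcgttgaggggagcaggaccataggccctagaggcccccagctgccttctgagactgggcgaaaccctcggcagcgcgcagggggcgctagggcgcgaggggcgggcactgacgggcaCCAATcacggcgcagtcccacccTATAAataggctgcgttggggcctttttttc
H2BC17: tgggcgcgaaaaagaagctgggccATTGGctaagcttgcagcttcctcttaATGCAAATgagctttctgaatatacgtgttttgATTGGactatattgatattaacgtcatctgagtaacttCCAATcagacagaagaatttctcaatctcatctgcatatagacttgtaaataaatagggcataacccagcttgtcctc
H2BC21: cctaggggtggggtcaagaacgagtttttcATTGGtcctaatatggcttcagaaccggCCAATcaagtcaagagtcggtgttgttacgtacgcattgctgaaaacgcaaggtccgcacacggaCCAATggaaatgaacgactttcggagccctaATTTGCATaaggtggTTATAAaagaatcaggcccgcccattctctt
H3C1: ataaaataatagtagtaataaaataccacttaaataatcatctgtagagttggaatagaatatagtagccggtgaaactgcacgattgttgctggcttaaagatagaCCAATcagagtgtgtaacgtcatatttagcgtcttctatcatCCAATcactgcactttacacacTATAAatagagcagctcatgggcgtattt
H3C2: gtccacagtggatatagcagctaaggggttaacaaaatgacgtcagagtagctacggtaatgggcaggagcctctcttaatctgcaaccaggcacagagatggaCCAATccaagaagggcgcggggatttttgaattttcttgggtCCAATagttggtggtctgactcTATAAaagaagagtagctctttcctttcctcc
H4C16: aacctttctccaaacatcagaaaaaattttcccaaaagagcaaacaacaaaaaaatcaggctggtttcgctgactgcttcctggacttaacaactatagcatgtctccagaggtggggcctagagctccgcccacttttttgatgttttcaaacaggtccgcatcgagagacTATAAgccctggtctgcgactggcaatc

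The motifs followed the histone type. Over the 250 bases before each listed start (72 windows, since some genes have more than 1), TATAA stood in 64 of 72 windows (88.9%), against 15.6% of 22132 windows of protein-coding genes. The octamer stood in 15 of 20 H2B windows and 11 of 16 H2A windows, in 1 of 13 H3 windows and in none of the 10 H1 or 13 H4 windows, against 1.58% of all windows. The AC box stood in 7 of 10 H1 windows and in no window of the other types, against 3.80% of all windows. CCAAT stood in all 16 H2A, 20 H2B and 13 H3 windows and in 3 of 13 H4 windows, against 32.7% of all. Windows of head-to-head H2A and H2B genes overlap, so 1 match can count for both genes, and matches to different motifs may share bases. The TATA and CCAAT boxes were present both where the gene had peaks and where it had none: H1-1, without a peak, carries both, as H1-4 and H1-3 do. Its AC box match (TGTGTTT) is on the opposite strand from theirs and lies farther from the start. Among windows of members with peaks in all 4 lists TATAA stood in 52 of 55, and among those of members without any peak in 11 of 16.

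Presence of open chromatin at the histone genes was the same in both genotypes for nearly every gene. A peak lay within 1 kb of the gene span in all 4 lists at 56 of 74 genes (75.7%), and 75.4% of all protein-coding genes met the same rule. Histone genes are short, with a median span of 495.5 bp against 24170.5 bp for all protein-coding genes. Of genes that span at most 2 kb, 73.4% of the 64 histone genes had a peak in all 4 lists, against 24.98% of all 1249 such genes, a range of length chosen after the data were seen. No list had a peak at 16 genes (background 16.3%), and 2 genes, H3C10 and H3C12, had peaks in some lists only (background 8.37%). Members with a peak numbered 58 and 57 in DEK KO replicates 1 and 2, and 58 and 56 in WT control replicates 1 and 2. By type, all 4 lists had a peak at 6 of 10 H1 genes, 15 of 17 H2A genes, 15 of 19 H2B genes, 9 of 13 H3 genes and 11 of 15 H4 genes. By position, they had one at 45 of 55 genes of the large cluster on chromosome 6, at 8 of 11 genes of the 105.3 kb cluster on chromosome 1 and at 3 of 8 genes outside the clusters, among them H4C16 and H1-10.

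**Figure D1:**
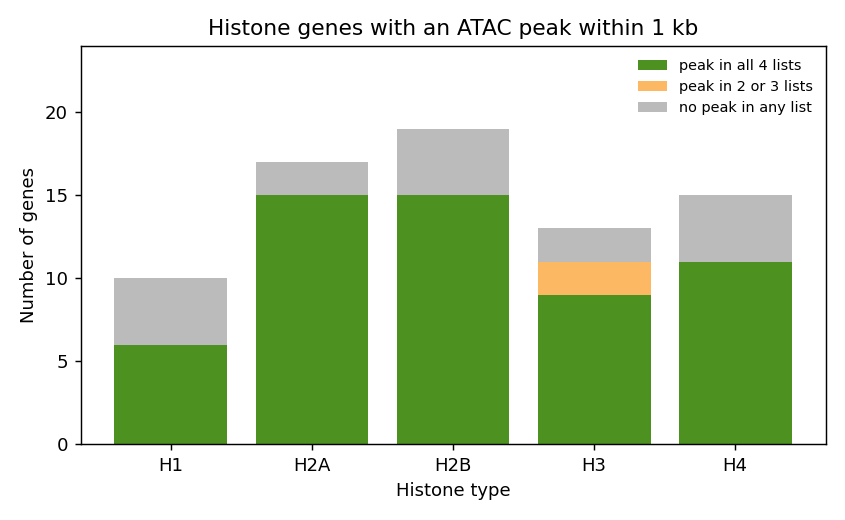
Number of histone genes of each type (x axis) by the number of peak lists with a peak within 1 kb of the gene (bar segments, y axis in genes). H2A genes had the smallest share without a peak, 2 of 17, and the 2 genes on which the lists disagreed are both H3 genes.

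Several of the 16 genes without a peak are known for expression in germ cells. H2AC1 and H2BC1, which encode testis histones, H1-6 and H1-7, linker histones of male germ cells, and H1-8, the oocyte linker histone, had no peak in any of the 4 lists. The others were H1-1, H2BC6, H4C6, H4C7 and H4C9 on chromosome 6, H4C14, H3C14 and H3C15 in the chromosome 1 cluster, the pair H2AC25 and H2BC26 elsewhere on chromosome 1, and H2BC12L on chromosome 21. Near-identical copies make 3 of these absences uncertain: over 300 bases of promoter window, H4C14 matched H4C15 at 100% of positions and H3C14 matched H3C15 at 98.7%, and how the authors treated reads that match both copies is not known, so their part was not tested. H2AC18 and H2AC19 (99.7% identical) and H4C11 and H4C12 (98.3%) are uncertain for the same reason. H4C9 lies inside the 8566 bp RefSeq span of H2BC12, whose best peak lay at the other end of that span.

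One region near the histone genes was called in both libraries of one genotype and in no library of the other. In all, 48 merged regions lay within 1 kb of members, and 42 of them were called in all 4 lists. A KO-only region, present in each DEK KO list but absent from the controls, lay at 1 member, against 15.4% of all genes with such a region. It lay by H2AC17 (chr6:27891977-27892410), with fold enrichments of 3.28 and 2.40 over local background in DEK KO replicates 1 and 2, and with percentiles of 45.9 and 17.0 within those full lists. No member had a WT-only region, present in each control list but absent from DEK KO, where 8.75% of all genes had one. Gene length moves with this difference: of genes that span at most 2 kb, 1 of 64 histone genes (1.56%) had a KO-only region, against 0.96% of all such genes, and 0 had a WT-only region, against 0.48%. Among short genes the histone genes were therefore near the background. Over the whole 2168 kb from H2AC1 to H2BC17 on chromosome 6, genes of other families included, 113 of 156 regions were called in all 4 lists, 5 were KO-only and 1 was WT-only.

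H3C10 and H3C12 were the members on which the lists disagreed, and their peaks were weak. H3C10 had a peak at percentiles of 6.23 and 16.4 in DEK KO replicates 1 and 2, against 30.2 in WT control replicate 1 and no peak in WT control replicate 2. H3C12 had one at 7.44 in DEK KO replicate 1 and none in replicate 2, against 0.138 in WT control replicate 1 and none in replicate 2. Neither gene separated the groups.

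Where present, the peaks of histone genes were wide and of moderate rank. The median width of the best peak over the 56 genes was 1239 and 1197.5 bp in DEK KO replicates 1 and 2 and 1458 and 1395 bp in WT control replicates 1 and 2. Over all 15054 genes with a peak in all 4 lists the medians were 988 and 955 bp in the DEK KO lists and 987 and 1017 bp in the control lists. Fold enrichment was lower than over all genes, with medians of 4.99 and 5.49 against 8.14 and 9.64 over all genes in DEK KO replicates 1 and 2, and of 5.80 and 5.44 against 8.73 and 8.24 in WT control replicates 1 and 2. Many regions were shared by neighbours: 35 distinct regions held the best peaks of the 56 genes, 17 of them those of 2 genes and 2 of them those of 3 genes. Peaks covered a median of 63.2% and 80.1% of the gene span in DEK KO replicates 1 and 2 and of 89.5% and 100% in WT control replicates 1 and 2, over the 47 members of at most 2 kb with a peak in all 4 lists.

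The head-to-head H2A and H2B pairs were open as units. Of 11 such pairs, with starts 194 to 248 bp apart, 9 had a peak in all 4 lists, and in each of the 9 both genes shared 1 region. The whole stretch between the starts lay inside a peak in every library at 8 of the 9 pairs. At the ninth, H2AC14 with H2BC14, peaks covered 58.9% and 100% of it in DEK KO replicates 1 and 2 and 76.8% and 100% in WT control replicates 1 and 2. The pairs without peaks were the testis pair H2AC1 with H2BC1 and the chromosome 1 pair H2AC25 with H2BC26. Over all types, the listed start lay in a peak in all 4 lists at 36 of 67 members, and 52% of genes with a listed start met that rule. A listed start and a peak in all 4 lists were present at 43 members of at most 2 kb. At 20 of these the best peak's summit lay within 500 bp of the start in every list. At the others the rank is that of a peak centred farther away in at least 1 list.

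The histone genes' best peaks ranked somewhat lower in DEK KO, by a margin that rested on DEK KO replicate 1. The median percentile of the 56 genes was 56.3 and 64.7 in DEK KO replicates 1 and 2, against 66.7 and 68.9 in WT control replicates 1 and 2. The median of the gene by gene differences, DEK KO minus WT control, was -5.37 points, against -0.46 over all genes. Both DEK KO libraries ranked below both controls at 18 of 56 genes (32.1%, background 23.6%) and above both at 6 (10.7%, background 18.9%), and the rest overlapped. With each distinct region counted once, by its first gene, 10 of 35 were lower and 3 higher. The median difference was -0.47 without DEK KO replicate 1 and -9.60 without WT control replicate 1, and in the full lists it was -1.43, against 0.58 over all genes. The 2 DEK KO libraries differed from each other by a median of 10.0 points over these genes, more than the 2 controls did (4.48 points).

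**Figure D2:**
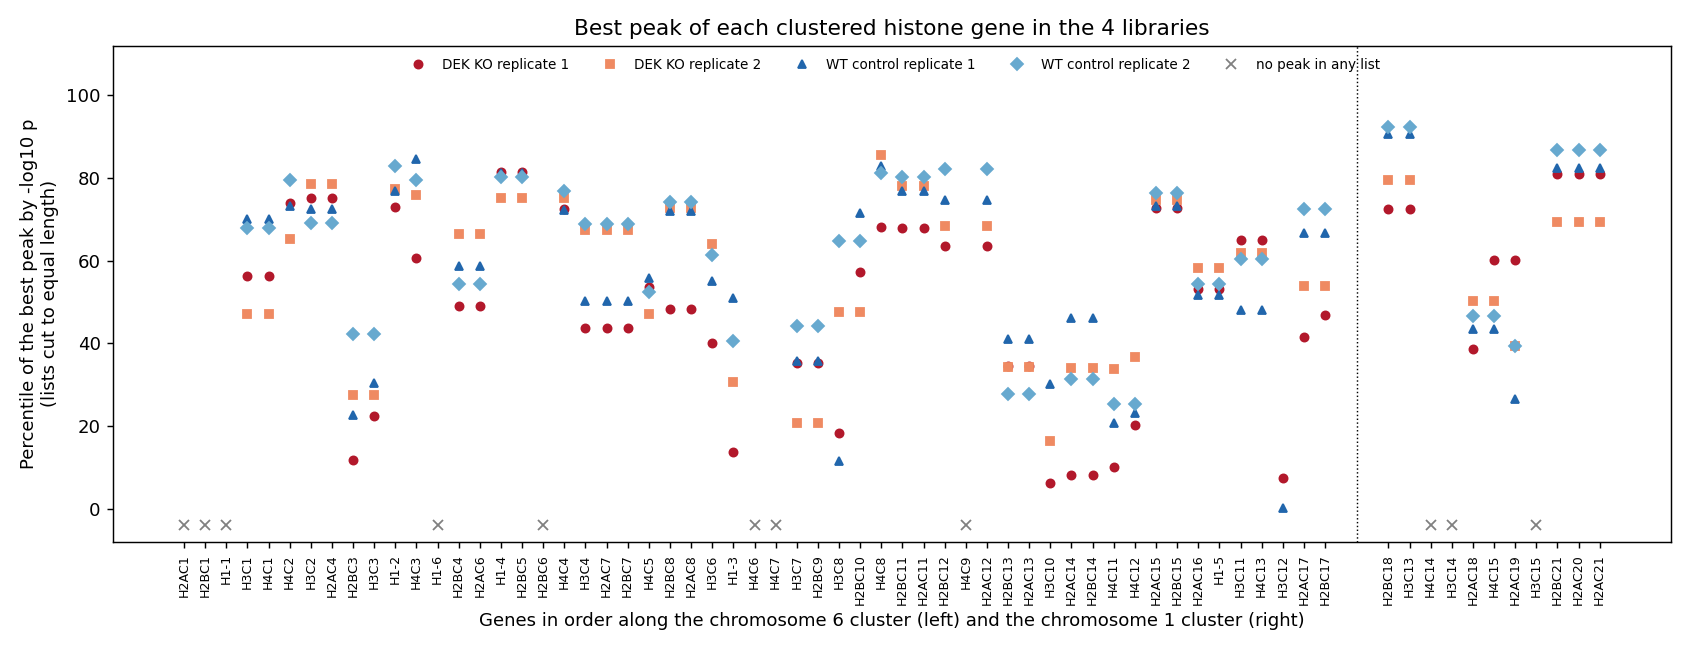
Percentile of the best peak by −log10 p (y axis) for each histone gene of the chromosome 6 and chromosome 1 clusters in genomic order (x axis), 1 symbol per library, with crosses for genes without a peak. DEK KO replicate 1 lies lowest at many genes, and H1-3, H3C1, H2BC17 and H2BC18 have both DEK KO libraries below both controls.

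Ranked by fold enrichment, the difference was larger and did not rest on 1 library. This ranking, an alternative planned beside the ranking by −log10 p, takes the fold of each peak's summit over its local background as the authors' peak caller gave it. It was run only in lists cut to equal length, which shortens the DEK KO lists most, and a rank by fold in the full lists was not run. By −log10 p the median difference was -5.37 in the equal-length lists and -1.43 in the full lists. The median fold percentile of the 54 members with a peak in all 4 lists was 30.6 and 34.1 in DEK KO replicates 1 and 2, against 44.3 and 45.2 in WT control replicates 1 and 2. Both DEK KO libraries ranked below both controls at 33 of 54 genes (61.1%, background 26%) and above both at 2 (3.70%, background 15.1%). The median difference was -12.6 points, against -1.57 over all genes. It was -7.85 without DEK KO replicate 1, -15.9 without DEK KO replicate 2, -13.1 without WT control replicate 1 and -10.2 without WT control replicate 2. With each distinct region of the −log10 p ranking counted once, by its first gene, 21 of 34 were lower. The 2 genes higher by fold, H4C15 and H2BC5, are not first in their regions, so that count leaves them out. At H2BC5 the best peak by fold was a different one from that of H1-4, the first gene. H2BC5 had fold percentiles of 56.7 and 60.7 in DEK KO replicates 1 and 2, against 49.7 and 54.1 in WT control replicates 1 and 2. Of the 18 genes lower by −log10 p, 17 were also lower by fold, and the remaining gene, H2AC17, lacked a fold rank in DEK KO replicate 1 because its peak fell outside the equal-length list. No gene was lower by one ranking and higher by the other. By fold, 4 of 9 replication-independent histone genes, 11 of 23 genes of histone transcription and 3′ end processing and 6 of 14 other genes inside the chromosome 6 cluster were also lower, against the background of 26%, with median differences of -9.60, -4.42 and -2.81 points. Whether these sets differ from the histone genes was not tested.

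**Figure D3:**
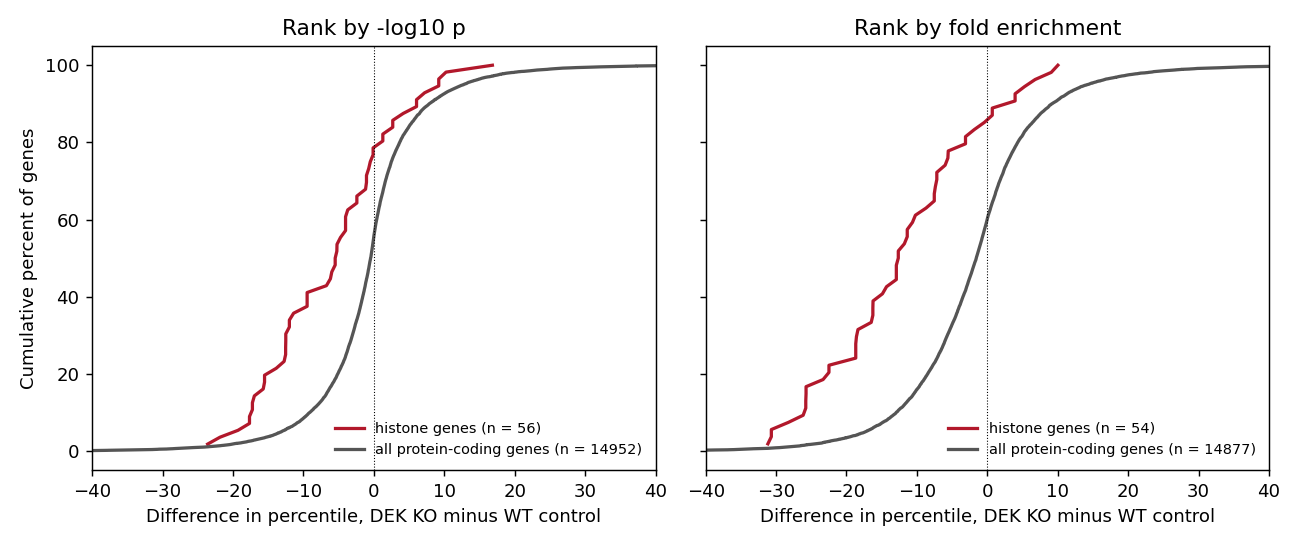
Cumulative percent of genes (y axis) by the difference in percentile of the best peak, DEK KO minus WT control (x axis), for histone genes and for all protein-coding genes, ranked by −log10 p (left) and by fold (right). The histone gene curve lies to the left of that of all genes over most of its range in both panels, with medians of -5.37 and -12.6 points against -0.46 and -1.57.

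Most genes ranked higher than the histone genes, whose rank moves with this comparison. Among genes with a mean percentile of 40 to 80 over the 4 libraries, a range also chosen after the data were seen, the median difference by −log10 p was -4.37 for 42 histone genes and -1.06 for all 5118 genes. By fold, the same range gave -7.53 for 20 histone genes and -3.03 for all genes in it. By −log10 p, 12 of 42 histone genes in that range (28.6%) were lower in both DEK KO lists, against 24.5% of all genes. In that range 13 of 20 histone genes (65.0%) were lower in both DEK KO lists by fold, against 28.0% of all genes.

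By histone type, read against 23.6% of all genes lower and 18.9% higher, H2B genes had the lowest median difference by −log10 p, -11.995 points over 15 genes, with 6 lower in both DEK KO lists and 0 higher. H3 genes had -6.17 over 9 genes, with 4 lower and 2 higher, and H2A genes had -4.02 over 15 genes, with 4 lower and 1 higher. H4 genes had -3.71 over 11 genes, with 3 lower and 2 higher, and H1 genes had -3.57 over 6 genes, with 1 lower and 1 higher. H2A and H2B genes share many regions, so the types are not independent. By fold, the median differences were -16.3 for H2B, -14.3 for H4, -12.004 for H3, -10.4 for H1 and -10.2 for H2A genes, all negative. Differences between types were not tested.

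Ranked by −log10 p, linker histone genes on chromosome 6 ranged from high ranks with overlapping groups to the lowest difference among the members. H1-4, a somatic linker histone, had percentiles of 81.5 and 75.2 in DEK KO replicates 1 and 2, against 81.2 and 80.3 in WT control replicates 1 and 2. By −log10 p the groups overlapped at H1-4, as they did at H1-2, another somatic linker histone. H1-2 had 73.0 and 77.3 in DEK KO replicates 1 and 2, against 77.0 and 82.8 in WT control replicates 1 and 2. The best peak at H1-2 was narrower in DEK KO, 1511 and 1549 bp against 2665 and 2662 bp in the controls, within a region at chr6:26054265-26056975. In that region DEK KO replicate 2 had 2 peaks and each other list had 1. At H1-5 the percentiles were 53.2 and 58.3 in DEK KO replicates 1 and 2, against 51.8 and 54.3 in WT control replicates 1 and 2, again overlapping. By fold, both DEK KO libraries lay below both controls at H1-4, H1-2 and H1-5, with differences of -11.8, -10.2 and -7.17 points. Downstream of the start, the best peak's summit lay at 1542 to 1835 bp for H1-4 and 1267 to 1326 bp for H1-2. For H1-5 it lay at 2271 to 2358 bp. All of these lie past the end of the gene, so these ranks are of peaks centred outside the genes.

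H1-3 (chr6:26232879-26235511) had percentiles of 13.7 and 30.6 in DEK KO replicates 1 and 2, against 51.1 and 40.5 in WT control replicates 1 and 2, so the groups did not overlap. Its mean was 22.2 ± 11.97 in DEK KO and 45.8 ± 7.48 in WT control (SD, n = 2 each), a difference of -23.6 points (exact permutation test, two-sided, p = 0.333, the smallest that 2 against 2 libraries allow). No difference at a single gene can pass a threshold of 0.05 in this design, and every gene described below as lower or higher in both DEK KO libraries has that same exact p of 0.333. The fold enrichment at H1-3 was 4.11 and 5.54 in DEK KO replicates 1 and 2, against 6.96 and 5.77 in WT control replicates 1 and 2, and the rank by fold differed by -31.2 points. The summit of its best peak lay 965 to 1133 bp downstream of the start, past the end of the gene. The difference is therefore that of a peak centred outside the promoter. The region held 2 and 3 separate peaks in DEK KO replicates 1 and 2 and 2 in each control, and the listed start lay in a peak in every library. The promoter of H1-3, printed above, carries the same TATA, CCAAT and AC boxes as that of H1-4.

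H1-10, a linker histone gene outside the clusters, is expressed independently of replication. This gene, on chromosome 3, had percentiles of 63.8 and 40.8 in DEK KO replicates 1 and 2, against 66.1 and 50.5 in WT control replicates 1 and 2, with overlapping groups. Its best peak (chr3:129313037-129315338) covered part of the gene and its lower-coordinate side. The summit lay 1945 to 1964 bp downstream of the start, past the end of the gene. The listed start lay in a peak in WT control replicate 2 alone. The merged region around the start (chr3:129316241-129316790) had a peak at full-list percentiles of 20.3 in DEK KO replicate 2 and 0.162 and 27.3 in WT control replicates 1 and 2. DEK KO replicate 1 had no peak there.

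After H1-3, the lowest differences with separate groups were at core histone genes. The H2A gene H2AC17 and its H2B partner H2BC17 (region chr6:27892730-27893828), at the higher-coordinate end of the chromosome 6 cluster, were lower in both DEK KO libraries. H2AC17 had 41.6 and 53.8 in DEK KO replicates 1 and 2, against 66.7 and 72.4 in WT control replicates 1 and 2, a difference of -21.8 points, and H2BC17 had 46.7 and 53.8 against the same control values, a difference of -19.3. The peak counted for H2BC17 in DEK KO replicate 1 was a different one from that counted for H2AC17. Fold enrichment at H2BC17 was 3.73 and 4.05 in DEK KO replicates 1 and 2, against 4.89 and 4.96 in WT control replicates 1 and 2. The stretch between the 2 genes, most of which is printed above as the promoter of H2BC17, lay wholly inside a peak in every library.

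H3C1 and H4C1, adjacent H3 and H4 genes that share a region (chr6:26020335-26022076), had 56.3 and 47.2 in DEK KO replicates 1 and 2, against 70.0 and 68.0 in WT control replicates 1 and 2, a difference of -17.2 points. Peak width there was similar, 1664 and 1675 bp in DEK KO and 1714 and 1570 bp in WT control, while fold enrichment was 4.83 and 4.08 in DEK KO against 6.61 and 5.44 in WT control. H4C16, the H4 gene on chromosome 12 (region chr12:14769531-14771416), had 47.5 and 61.7 in DEK KO replicates 1 and 2, against 70.4 and 72.8 in WT control replicates 1 and 2, a difference of -17.0 points. The summit of its best peak lay 928 to 1019 bp downstream of the start, past the end of the gene. In DEK KO replicate 1 no peak covered the gene or its start. H2BC10 had 57.3 and 47.6 in DEK KO replicates 1 and 2, against 71.5 and 64.9 in WT control replicates 1 and 2, a difference of -15.7 points. At these 3 loci both DEK KO libraries lay below both controls by −log10 p and by fold alike.

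Among the genes that ranked higher in both DEK KO libraries, 5 lie in the clusters. H3C2 and H2AC4 (region chr6:26031681-26034052) had 75.1 and 78.6 in DEK KO replicates 1 and 2, against 72.5 and 69.1 in WT control replicates 1 and 2, a difference of 6.07 points by −log10 p, and of 0.71 points with overlapping groups by fold. H3C11 and H4C13 (region chr6:27871404-27872982) had 65.0 and 61.9 in DEK KO replicates 1 and 2, against 48.1 and 60.4 in WT control replicates 1 and 2, a difference of 9.22 points by −log10 p, and of 3.95 points with overlapping groups by fold. Peaks covered H3C11 in every list and H4C13 in no list. H4C15 had 60.2 and 50.3 in DEK KO replicates 1 and 2, against 43.4 and 46.6 in WT control replicates 1 and 2, a difference of 10.3 points. These values are not of 1 peak: that of DEK KO replicate 1 is the best peak of H2AC19, and the others are the best peak of H2AC18. At the H2AC18 peak DEK KO replicate 1 had 38.6, and the groups overlapped. The RefSeq span of H4C15 is 16753 bp long, and both peaks lie in it or within 1 kb of it. Its start lay in no peak, and H4C15 is a near-identical copy of H4C14. Its value therefore describes peaks near other genes and not its own promoter. The largest positive difference, 16.8 points, was at H2AC19, where the groups overlapped, with 60.2 and 39.3 in DEK KO replicates 1 and 2, against 26.4 and 39.4 in WT control replicates 1 and 2. No peak covered H2AC19 itself or its start in any list.

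The highest-ranked regions lay in the chromosome 1 cluster and at H1-4 and H2BC5, which share a best peak. H2BC18 and H3C13 (region chr1:149812048-149813739) had 72.5 and 79.5 in DEK KO replicates 1 and 2, against 90.7 and 92.3 in WT control replicates 1 and 2, a difference of -15.5 points. Width of the best peak was 807 and 767 bp in DEK KO, against 1018 and 1683 bp in WT control, and DEK KO replicate 2 had 2 peaks in the region where each other list had 1. H2BC21, H2AC20 and H2AC21 shared best peaks, at percentiles of 80.9 and 69.3 in DEK KO replicates 1 and 2, against 82.4 and 86.8 in WT control replicates 1 and 2, a difference of -9.47 points. Their best peak was not the same region in every list. In the full lists these 3 genes had 83.4 and 72.4 in DEK KO replicates 1 and 2, against 82.4 and 86.9 in WT control replicates 1 and 2, so the groups overlapped. Over the chromosome 1 cluster, 5 of the 8 genes with peaks in all lists were lower in both DEK KO libraries (62.5%, background 23.6%) and 1 was higher (12.5%, background 18.9%). Its median difference was -9.47 points, and it was -3.675 without DEK KO replicate 2. The 5 genes fall into 2 groups that share peaks, those of H2BC18 and of H2BC21.

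The chromosome 6 cluster held 55 members, and 45 of them had a peak in all 4 lists. Of these, 12 were lower in both DEK KO libraries (26.7%, background 23.6%) and 4 higher (8.89%, background 18.9%), with a median difference of -5.23 points. That median was -0.325 without DEK KO replicate 1, -10.5 without DEK KO replicate 2, -9.33 without WT control replicate 1 and -0.71 in the full lists. By fold, 27 of 43 members were lower (62.8%, background 26%) and 1 higher (2.33%, background 15.1%). The 19 other protein-coding genes inside the same span, among them the butyrophilin genes and HFE, an iron regulator, had a median difference of 0.54 over 14 genes, with 2 lower and 2 higher, and by fold -2.81 with 6 lower and 1 higher. The difference between members and these neighbours was not tested.

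Within the chromosome 6 cluster the blocks had different medians, a difference that was not tested. The block from H1-1 to H4C8 (26.02 to 26.29 Mb) held 32 members, with a median difference of -5.25 points over 27 genes. The small block from H2BC11 to H2AC12 held 5 members, with -8.997 over 4 genes. The block from H2BC13 to H2BC17 (27.81 to 27.89 Mb) held 16 members, all of them with a peak in at least 1 list, with -0.57 over 14 genes. The 3 lowest-ranked distinct regions by mean percentile were those of H4C11 and H4C12, in this last block, and of H2BC3, in the first. H4C11 had 10.0 and 33.8 in DEK KO replicates 1 and 2, against 20.8 and 25.4 in WT control replicates 1 and 2. H4C12 had 20.2 and 36.8 in DEK KO replicates 1 and 2, against 23.2 and 25.4 in WT control replicates 1 and 2. H2BC3 had 11.8 and 27.5 in DEK KO replicates 1 and 2, against 22.5 and 42.2 in WT control replicates 1 and 2. At all 3 the groups overlapped, by −log10 p and by fold, and DEK KO replicate 1 was the lowest library. H2AC14, singled out after its values were seen, had 8.06 and 34.1 in DEK KO replicates 1 and 2, against 46.0 and 31.5 in WT control replicates 1 and 2, with overlapping groups by −log10 p, whereas by fold both DEK KO libraries lay below both controls.

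**Figure D4:**
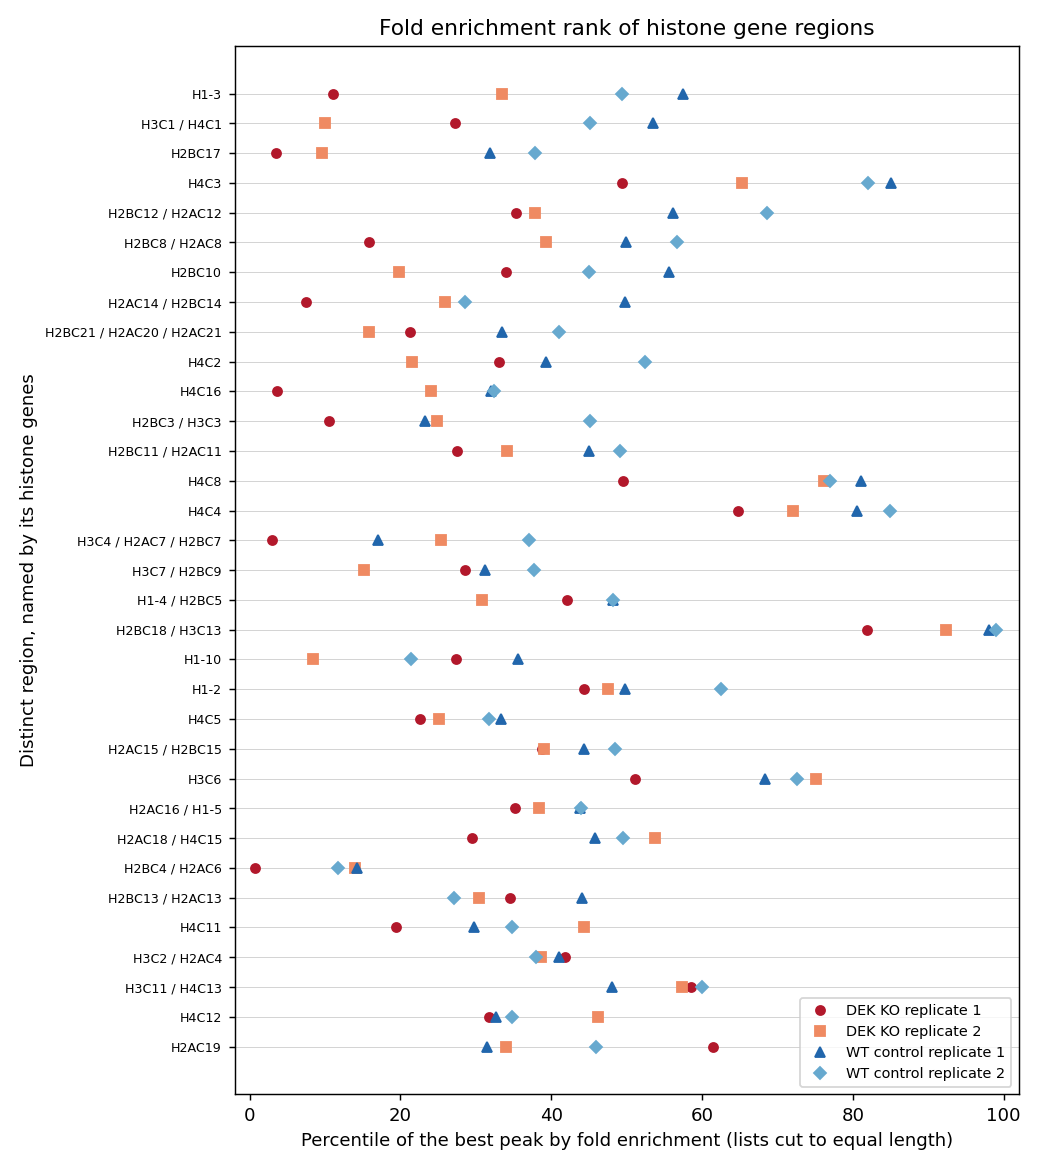
Percentile of the best peak by fold enrichment (x axis) for distinct regions that hold histone genes (y axis, named by those genes), 1 symbol per library, with the values of the first gene named and the regions ordered by the difference between genotypes, lowest at the top. In 21 of the regions drawn both DEK KO libraries lie below both controls, and at H3C2 / H2AC4 the 4 libraries lie between 38.0 and 41.8. The values of H2BC5 and H4C15, which were higher in both DEK KO lists, are not drawn, since neither is the first gene of its region.

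Best peaks were narrower in both DEK KO libraries at 13 of 56 genes (background 24%) and wider at 7 (background 15.7%), both near or below the background. The median ratio of widths, DEK KO over WT control, was 0.907, against 0.979 over all genes. Without DEK KO replicate 1 it was 0.973, against 0.965 over all genes. H1-2, H2BC18 and H4C16 were among the narrower, with ratios of 0.574, 0.583 and 0.610, and H2AC14 and H2BC14 had 1.39. In the regions of H1-2, H2BC18 and H4C16, DEK KO replicate 2 had 2 peaks and each other list had 1. The width of the best peak in that replicate therefore leaves out a second peak of the same region.

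Histone genes outside the rule, and the genes that serve histone mRNA production, are given for comparison, from 2 fixed lists. Of 19 replication-independent histone genes, 9 had a peak in all 4 lists, of which 2 were lower and 3 higher in both DEK KO libraries (background 23.6% and 18.9%), with a median difference of -1.62 points. The largest differences were -10.3 at H3-3A, which encodes the variant H3.3, 9.29 at MACROH2A1, a variant with a macro domain, -9.15 at H2AL3, where the groups overlapped, and -8.15 at H2AZ2, which encodes an H2A.Z. All 23 genes of histone transcription and 3′ end processing had a peak in all 4 lists, of which 8 were lower (34.8%, background 23.6%) and 1 higher (4.35%, background 18.9%), with a median difference of -0.70. Their largest differences were at UPF1, a helicase of histone mRNA decay (-13.6), LSM11, a U7 snRNP subunit (-11.0), and the small nuclear ribonucleoprotein genes SNRPE (-9.22) and SNRPF (-8.06). NPAT, a coactivator of histone gene transcription, and SLBP, which binds the mRNA stem-loop, were added after their values were seen. NPAT had 97.6 and 98.5 in DEK KO replicates 1 and 2, against 98.5 and 96.8 in WT control replicates 1 and 2, with overlapping groups. SLBP had 90.4 and 89.0 in DEK KO replicates 1 and 2, against 91.0 and 92.6 in WT control replicates 1 and 2, a difference of -2.12 points.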

How the data were processed

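Peaks were deposited by the authors as 1 list per library, so calling was done library by library, without pooling. The submitters' processing notes name GRCh38 and hg38 as builds and, as tools, MACS2 2.2.7.1, cutadapt 1.18, Bowtie2 2.2.5, Picard 2.26.9, SAMtools 1.7, ChIPseeker 1.32.1, DiffBind 3.6.5 and deepTools 3.5.1. Settings, duplicate removal, any shift of reads for the transposase and the handling of reads with several matches are not given in the sources used here. Per the labels' protocols, extraction used an RNA reagent and an mRNA library kit, which is no ATAC-seq protocol. The deposited fold (a ratio at the summit), −log10 p and −log10 q values come from the authors' peak caller and were used only to rank, filter or describe peaks inside their own list. The deposited score was not used. The lowest −log10 q lay between 1.303 and 1.32, a q-value limit of 0.05. Read depth per library is unknown, so no counting interval is given.

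Gene spans came from RefSeq (GRCh38.p14). The best peak of a gene was the peak with the highest −log10 p within 1 kb of its span, and its percentile was taken in lists shortened to the 89563 highest-ranked peaks. Regions were merged from the full lists where peaks overlapped by at least 1 bp. Lower and higher mean that the 2 libraries of each group do not overlap. Single genes were tested by exact permutation, two-sided, with 6 possible assignments of the libraries to groups. Clusters joined members at most 1 Mb apart, with at least 3 members. Python 3.11.15, numpy 2.4.6 and pandas 2.3.3 were used, and the ranking code was tested on simulated data. Alternatives were rank in the full lists, rank by fold, other windows, a stricter q, absent peaks set to 0, the peak over the start, each region once, the replicate block and each library left out.

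The text names every linker histone gene, every member outside the clusters, members on which lists disagreed or with a one-genotype region, the 3 highest and 3 lowest ranked regions and the 5 largest differences per direction among genes whose groups do not overlap, with the genes that share those regions, and up to 4 genes per comparison list. Members, lists and this rule were chosen with earlier results of these data known. A result of 1 gene that the rule names is not reported here.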

Additional observations from a re-analysis of the deposited data

How the results depend on the processing

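Read depth is unknown and 2 libraries per group limit every comparison; the cause of each change below was not tested. The median difference of the histone genes (-5.37) stayed negative under every alternative run, at -12.6 ranked by fold and between -9.60 and -0.47 with 1 library left out (between -15.9 and -7.85 ranked by fold, with -15.9, -13.1 and -10.2 without DEK KO replicate 2, WT control replicate 1 and WT control replicate 2). The chromosome 6 median was -0.71 in the full lists and between -10.5 and -0.325 with 1 library left out, and that of chromosome 1 lay between -12.1 and -3.675. The 18 genes lower in both DEK KO libraries became 33 by fold (61.1%, against 26.05% of all genes) and 12 in the full lists (21.4%, against 15.9% of all genes). With the peak over the start 12 of 39 were lower (30.8%, against 24.01% of all genes). With 1 library left out 23 to 38 were lower (41.1% to 67.9%, against 33.9% to 43.7% of all genes). With each region once 10 of 35 were lower, and no share over all genes was computed for regions. The 6 genes higher became 10 in the full lists (17.9%, against 27.4% of all genes) and 2 by fold (3.7%, against 15.11% of all genes). By fold among genes of percentile 40 to 80, 2 were higher (10.0%, against 15.08% of all genes). With the peak over the start 2 of 39 were higher (14.55% of all genes), and with each region once 3 of 35. With 1 library left out 8 to 15 were higher (14.3% to 26.8%, against 28.6% to 37.7% of all genes). The replicate numbers were not shown to pair the samples (correlation of the differences between replicates 0.01 over 14952 genes). With the replicate block the median difference was -5.37, the same as the main value by construction. Within both numbers 31 genes were lower (32.03% of all genes) and 8 higher (25.7% of all genes), and the block's smallest sign-flip p is 0.5. The 1 gene with a KO-only region became 0 without a window (14.85% of all genes), 5 with 5 kb (17.73% of all genes) and 0 at a −log10 q of at least 5 (12.38% of all genes). It became 1 to 2 with 1 library left out (20.88% to 29.8% of all genes). Genes with a WT-only region were 0 to 1 with 1 library left out (13.59% to 21.49% of all genes) and 0 otherwise (8.32% to 11.25% of all genes). The width ratio (0.907) was 0.953 over summed widths and 0.884 to 0.973 with 1 library left out. Of 50 values of 17 named genes under alternatives, 48 kept their direction and 2 reversed: H1-5 (-7.17) by fold and H4C11 (7.56) in the full lists. For each of the 17 genes the value under the replicate block equals the main value by construction. Those 17 values could not reverse, and the count of 48 includes them.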
